A study of Caenorhabditis elegans with 2 samples.

Results

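The heterochronic genes considered here are lin-14, lin-28, lin-29, lin-41, lin-42, lin-46, hbl-1 and daf-12, which are 8 of the 19973 protein-coding genes of Caenorhabditis elegans in the annotation used. They were named one by one as core regulators of larval timing, and the naming used no threshold on binding. Each was read against ChIP-seq peaks of LIN-15B, called in whole L3 larvae of mixed sex. The strain, OP184, has the genotype unc-119(tm4063) III; wgIs184, in which wgIs184 is an integrated transgene that adds LIN-15B fused to eGFP. There was 1 group with 2 biological replicates, both compared with a control in peak calling, and no second strain, stage or treatment. All larvae thus carried the unc-119 allele and the tagged protein, so binding of untagged LIN-15B was not measured. Whole worms mix all tissues, so binding in 1 cell type and binding in many cannot be told apart.

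Heterochronic genes set the order in which cells of the larva adopt stage-specific fates. Early regulators such as LIN-14, LIN-28 and HBL-1 hold cells in early programs, and microRNAs of the lin-4 and let-7 families shut them down as larvae grow. LIN-41 and LIN-29 act at the passage from larva to adult, while DAF-12 and LIN-42 tie the sequence to hormone signalling and to the molting cycle. LIN-15B is a THAP-domain protein of the synMuv B class, which keeps germline genes silent in the soma and takes part in shaping the vulva.

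The deposited list that passed the irreproducible discovery rate (IDR) step held 3331 peaks, and 9 of them lay at 5 of the 8 genes. By signal these 3331 were exactly the highest entries of the pooled list, and 3322 of them had an overlapping entry in both replicates. A place in the IDR list thus follows pooled signal and is not by itself a statement on how well the replicates agree at that peak. The DNA under the 6 peaks of lin-14, lin-42 and lin-46 is printed because these peaks stand in introns or outside the promoter window of the gene they were assigned to. Each window holds the summit base and 50 bases on either side, in WBcel235 (ce11), read 5′ to 3′ on the + strand. The genes lin-14 and lin-46 run on that strand and lin-42 runs on the other. Capitals mark matches, on either strand, to the motifs described after the peaks.
lin-14 first-intron peak, chrX:11467479-11467579: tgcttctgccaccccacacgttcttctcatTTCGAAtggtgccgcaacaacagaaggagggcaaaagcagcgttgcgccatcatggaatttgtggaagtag
lin-14 second intronic peak, chrX:11472034-11472134: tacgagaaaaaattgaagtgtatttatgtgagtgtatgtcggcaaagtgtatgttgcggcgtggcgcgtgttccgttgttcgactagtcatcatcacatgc
lin-42 first-intron peak, chrII:1246948-1247048: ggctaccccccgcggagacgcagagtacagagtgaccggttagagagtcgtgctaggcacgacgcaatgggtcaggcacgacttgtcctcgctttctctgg
lin-42 inner intronic peak, chrII:1238044-1238144: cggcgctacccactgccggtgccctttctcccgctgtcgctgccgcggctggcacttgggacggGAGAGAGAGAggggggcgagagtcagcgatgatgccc
lin-46 outer upstream peak, chrV:12967938-12968038: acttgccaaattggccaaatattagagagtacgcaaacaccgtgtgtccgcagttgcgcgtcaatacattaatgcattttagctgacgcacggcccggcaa
lin-46 inner upstream peak, chrV:12968170-12968270: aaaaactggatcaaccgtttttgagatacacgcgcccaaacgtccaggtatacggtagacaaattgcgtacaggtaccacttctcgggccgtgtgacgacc

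LIN-15B peaks assigned to these genes lay mostly outside the genes' own promoter windows, in 8 of 9 cases, though several stood at the 5′ end of another gene. The same share was not taken over all IDR peaks, and the zones outside the window cover more sequence than the window itself. The promoter window reached 500 bp upstream and 200 bp downstream of each annotated 5′ end. Only lin-28 had an IDR summit in such a window, so 1 of the 8 genes (12.5%, exact 95% interval 0.316 to 52.7) was called there, against 13.4% of all protein-coding genes. Introns outside the promoter windows held summits in 2 genes, lin-14 and lin-42 (25%, interval 3.19 to 65.1), against 1.84% of all genes. The zone beyond 500 and up to 5000 bp upstream of the outermost 5′ end held summits in 3 genes, lin-28, lin-41 and lin-46 (37.5%, interval 8.52 to 75.5), against 17.2%. In any of these zones 5 of the 8 genes had a summit (62.5%, interval 24.5 to 91.5), against 28.8% of all genes. The promoter share was thus next to the genome-wide share. That count was 2 without replicate 2, where lin-14 joined lin-28, and 0 when the outermost 5′ end of each gene was used alone. The shares of all protein-coding genes were then 13.0% and 12.7%. With a window from 1000 bp upstream, the stronger lin-28 peak (548 bp) and both lin-46 peaks (867 and 635 bp) also fell inside. The intronic share was above the genome-wide share. The upstream and combined shares were above the genome-wide shares as well, with intervals that included them.

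**Figure D1:**
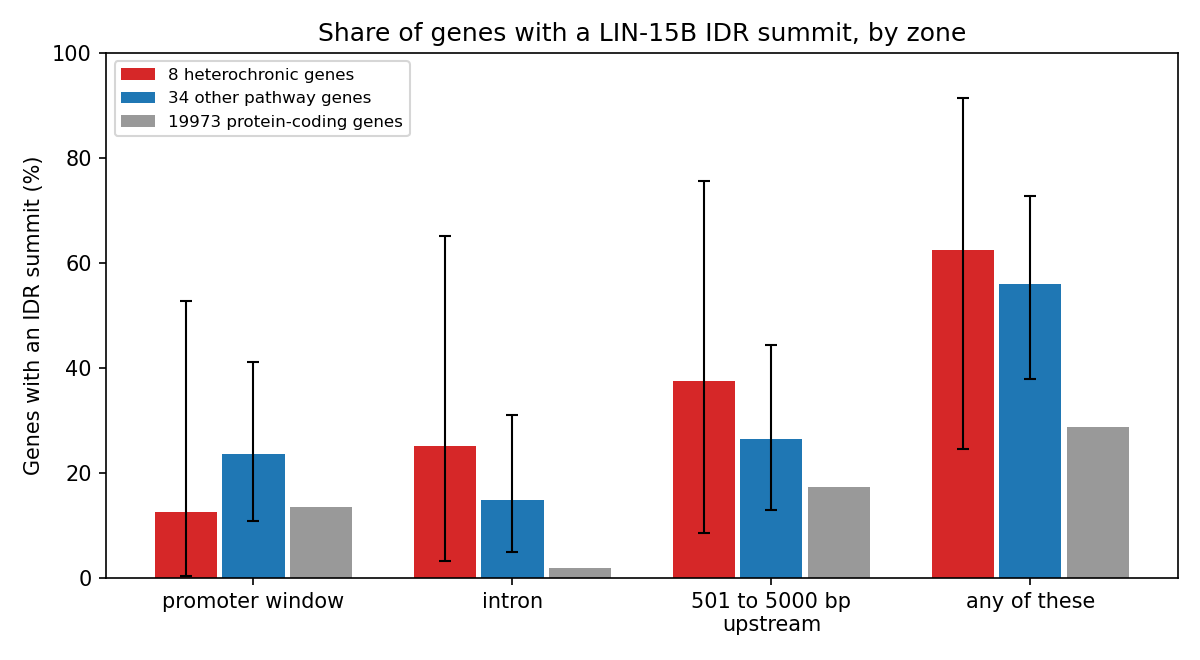
Share of genes with a LIN-15B IDR summit (y axis, percent) in each zone (x axis) for the 8 heterochronic genes (red), the 34 other genes of the pathway (blue) and all 19973 protein-coding genes (grey). Error bars are exact 95% intervals, which cover counting error only. The red and grey bars are close in the promoter window (12.5% and 13.4%) and far apart in introns (25% and 1.84%).

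Among the early regulators, lin-28, an RNA-binding protein that blocks maturation of let-7, had the highest signal of the 8 genes. The gene (WBGene00003014) spans 8407630 to 8410804 of chromosome I on the − strand and has 2 annotated 5′ ends. Its higher peak, at 8411240 to 8411472, had a pooled signal of 137.2 and stood at rank 531 of the pooled list. It gave 61.2 in replicate 1 and 78.6 in replicate 2, and its summit lay 548 bp upstream of the outer 5′ end, just outside the promoter window. The other lin-28 peak, at 8409877 to 8410098, had a pooled signal of 114.6, with 53.4 in replicate 1 and 68.2 in replicate 2. Its summit lay 59 bp upstream of the inner 5′ end and within an intron of the longer transcript, 825 bp downstream of the outer end. So lin-28 carried 1 peak near each of its annotated starts, both within the 3331 highest entries of each replicate. The signal is the authors' own value per peak on a scale not given in the sources used here, and it serves only to rank and describe peaks.

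Another lin-28 entry, 2182 bp upstream with a pooled signal of 18.8, did not reach the IDR list. It gave 11.7 in replicate 1 and 3.81 in replicate 2, and it lay 266 bp upstream of an annotated 5′ end of the neighbouring gene F02E9.7.

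The gene lin-14 (WBGene00003003, chromosome X, 11465560 to 11485871, + strand) encodes a nuclear protein that specifies the earliest larval fates and is the classic target of the lin-4 microRNA. Its 2 IDR peaks were both intronic and weak. The one at 11467374 to 11467683, 1969 bp downstream of the outer 5′ end, had a pooled signal of 26.99 (rank 2913), with 9.17 in replicate 1 and 15.8 in replicate 2. Its summit was 1 bp from the 5′ end of T25C12.7, a non-coding RNA gene annotated inside lin-14. The one at 11471929 to 11472238, 6524 bp downstream, had 24.9 (rank 3086), with 11.4 in replicate 1 and 12.6 in replicate 2. In each of these peaks 1 replicate fell outside the 3331 highest entries of its own list, so these calls rest near the limit.

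Lower entries ran along the whole of lin-14. Its zones held 22 entries of the pooled list, and 6 of those outside the IDR list had the highest q-value score that list can give (−log10 q of 3.96). The promoter entry, 115 bp upstream of the 5′ end, had 19.99 (rank 3686), with 12.6 in replicate 1 and 7.32 in replicate 2. The intronic entry just outside the IDR list, 9265 bp into the gene, had 22.3 and missed it by 46 ranks, against 24.9 for the lin-14 peak just inside it. The lowest signal in the IDR list was 22.7.

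The early regulator hbl-1 encodes a hunchback-like zinc-finger protein that is a target of the let-7 family. It lies on chromosome X (WBGene00001824, 5822142 to 5827755, + strand) and had no IDR summit in any zone. The highest of its 8 pooled entries, 1977 bp upstream, had a signal of 7.53 (rank 9544), with 2.60 in replicate 1 and 6.54 in replicate 2. An entry 2 bp upstream of its 5′ end had 4.21. Both are far under the lowest IDR signal, and the deposited list counts such entries as peaks and background together. In the replicates' own lists the highest hbl-1 entry, upstream in each, had 9.03 in replicate 1 and 6.54 in replicate 2.

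The gene lin-46 encodes a gephyrin-like scaffold protein that acts downstream of lin-28 and against HBL-1. It is short (1876 bp) and lies on chromosome V (WBGene00003031, 12968855 to 12970730, + strand). It had 2 overlapping IDR peaks upstream. The peak at 12967893 to 12968124 had a pooled signal of 96.4 (rank 855), with 50.5 in replicate 1 and 43.4 in replicate 2, and its summit was 867 bp from the lin-46 5′ end. The peak at 12968065 to 12968374 had 46.7 (rank 1889), with 22.3 in replicate 1 and 11.7 in replicate 2, and its summit was 635 bp away. Its entry in replicate 2 stood at rank 3531, outside the 3331 highest of that list. Both summits lay in the promoter window of the divergent gene R186.8, at 6 bp and 238 bp upstream of its 5′ end. The peaks therefore were closer to R186.8 than to lin-46, and which of these genes they belong to cannot be told apart from positions alone.

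Of the late regulators, lin-41 had 1 weak IDR peak and lin-29 had none. LIN-41 is a TRIM-NHL RNA-binding protein and a let-7 target that keeps larval programs active. Its gene (WBGene00003026, chromosome I, 9334800 to 9342496, − strand) had a peak at 9343777 to 9344086, 1436 bp upstream, with a pooled signal of 38.7 (rank 2188). That peak had 24.8 in replicate 1 and 14.4 in replicate 2, and no other protein-coding 5′ end was closer to it than M04C9.2 at 5644 bp. LIN-29 is a zinc-finger protein that drives the switch of skin cells to adult fates. Its gene (WBGene00003015, chromosome II, 11917642 to 11935343, − strand) held 7 pooled entries, none of them in a promoter window, the highest an intronic one with 7.21. That entry had 3.89 in replicate 1 and 3.15 in replicate 2.

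The gene lin-42 encodes the worm's Period-like protein, whose level cycles with the molts. It lies on chromosome II (WBGene00018572, 1233236 to 1252359, − strand), with 7 transcripts and 5 annotated 5′ ends. Its higher peak, at 1246843 to 1247152, had a pooled signal of 64.7 (rank 1340), with 24.1 in replicate 1 and 39.5 in replicate 2. It lay in the long first intron, 5361 bp downstream of the outermost 5′ end, 2963 bp before the next lin-42 5′ end, and 30 bp inside the non-coding RNA gene F47F6.13. The peak at 1237939 to 1238248 had 29.0 (rank 2753), with 12.8 in replicate 1 and 15.3 in replicate 2. It was 1125 bp upstream of an inner 5′ end that starts shorter transcripts. The highest pooled entry in a lin-42 promoter window had 4.29, and in the replicates' own lists the highest had 2.78 in replicate 1 and 6.02 in replicate 2.

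The gene daf-12 encodes the nuclear hormone receptor that joins steroid signals to the choice between dauer and reproductive growth. It is the longest of the 8, at 30968 bp (WBGene00000908, chromosome X, 10635908 to 10666875, + strand), with 10 transcripts and 9 annotated 5′ ends. No IDR summit fell in its zones. Its highest pooled entry, intronic and 727 bp downstream of an inner 5′ end, had 21.2 and missed the IDR list by 164 ranks. It had only 3.63 in replicate 1 (rank 11744) against 16.0 in replicate 2 (rank 2768), the widest gap between replicates among the highest entries of the 8 genes (log2 ratio of replicate 2 over replicate 1 of 2.14). Its promoter entry, 113 bp upstream, had 10.02 with no overlapping entry in replicate 1 and 5.10 in replicate 2.

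**Figure D2:**
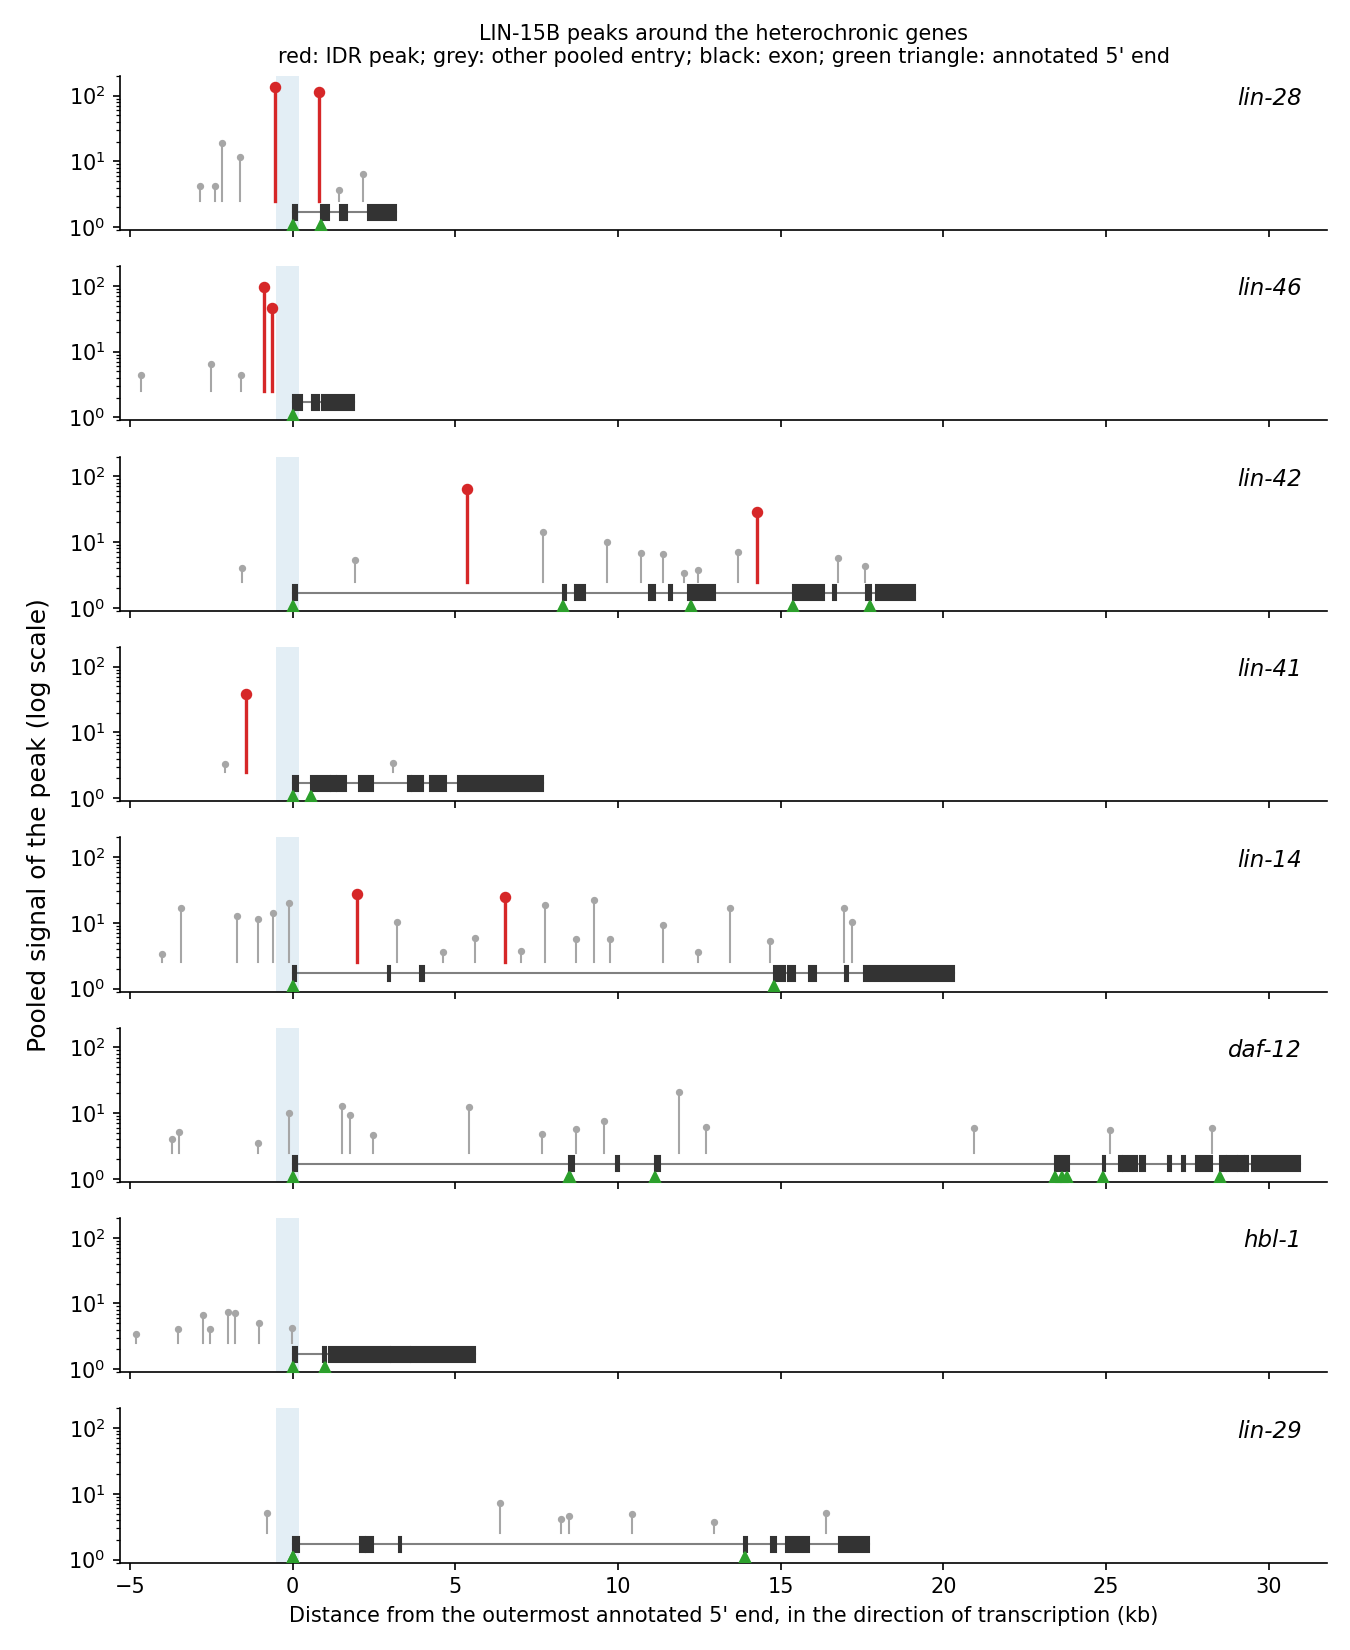
Peaks around each of the 8 genes: distance from the outermost annotated 5′ end in the direction of transcription (x axis, kb) against the pooled signal of each entry (y axis, log scale). Red stems are IDR peaks, grey stems other entries of the pooled list, black boxes exons, green triangles annotated 5′ ends, and the blue band the promoter window of the outermost 5′ end. The red stems of lin-14 and lin-42 stand in introns, those of lin-46 and lin-41 upstream of the band, and daf-12, hbl-1 and lin-29 have none.

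By highest pooled signal the genes ran lin-28 (137.2), lin-46 (96.4), lin-42 (64.7), lin-41 (38.7), lin-14 (26.99), daf-12 (21.2), hbl-1 (7.53) and lin-29 (7.21). In both replicates lin-28 stood above lin-46 and lin-46 above the other 6. Further down the order differed between replicates. At these same peaks lin-41 had 24.8 and lin-42 24.1 in replicate 1, lin-14 had 15.8 and lin-41 14.4 in replicate 2, daf-12 had 16.0 and lin-14 15.8 in replicate 2, and lin-29 had 3.89 and hbl-1 2.60 in replicate 1. In the other replicate each pair kept the pooled order. There lin-42 had 39.5 against 14.4 for lin-41, and lin-41 had 24.8 against 9.17 for lin-14. Likewise lin-14 had 9.17 against 3.63 for daf-12, and hbl-1 had 6.54 against 3.15 for lin-29. With 2 replicates, differences between such neighbours were not tested. By the highest entry in each replicate's own list, though, hbl-1 stood above lin-29 in both. It had 9.03 against 3.89 in replicate 1 and 6.54 against 3.39 in replicate 2. The median pooled signal of the 9 peaks was 46.7, against 53.1 over the 3331 peaks of the IDR list.

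**Figure D3:**
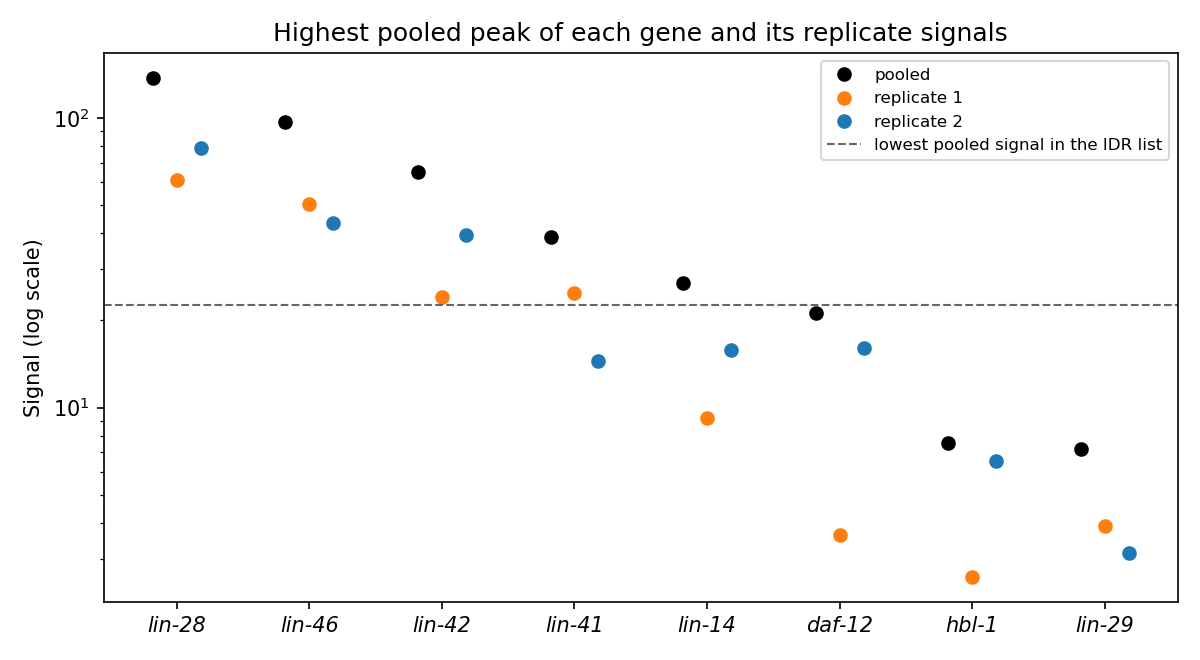
Signal (y axis, log scale) of the highest pooled entry of each gene (x axis) in the pooled list (black), replicate 1 (orange) and replicate 2 (blue). For hbl-1 the replicate 2 point is an overlapping entry whose summit was 205 bp away. The dashed line is the lowest pooled signal of the IDR list, 22.7, and only the black points are to be read against it: those of daf-12, hbl-1 and lin-29 lie under it.

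All 9 peaks had an overlapping entry in both replicates, matched by nearest summit. Their log2 ratio of replicate 2 over replicate 1 ran from -0.92 at the weaker lin-46 peak to 0.78 at the lin-14 peak near T25C12.7, with a median of 0.26. Across the 3322 IDR peaks present in both replicates the median was also 0.26, with an SD of 0.63 over peaks. Within 1 SD of that median lay 7 of the 9 peaks, against 2520 of the 3322. The other two were the lin-41 peak (-0.78) and the weaker lin-46 peak, both lower in replicate 2 than most peaks. With 2 replicates no test of these single peaks was possible.

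**Figure D4:**
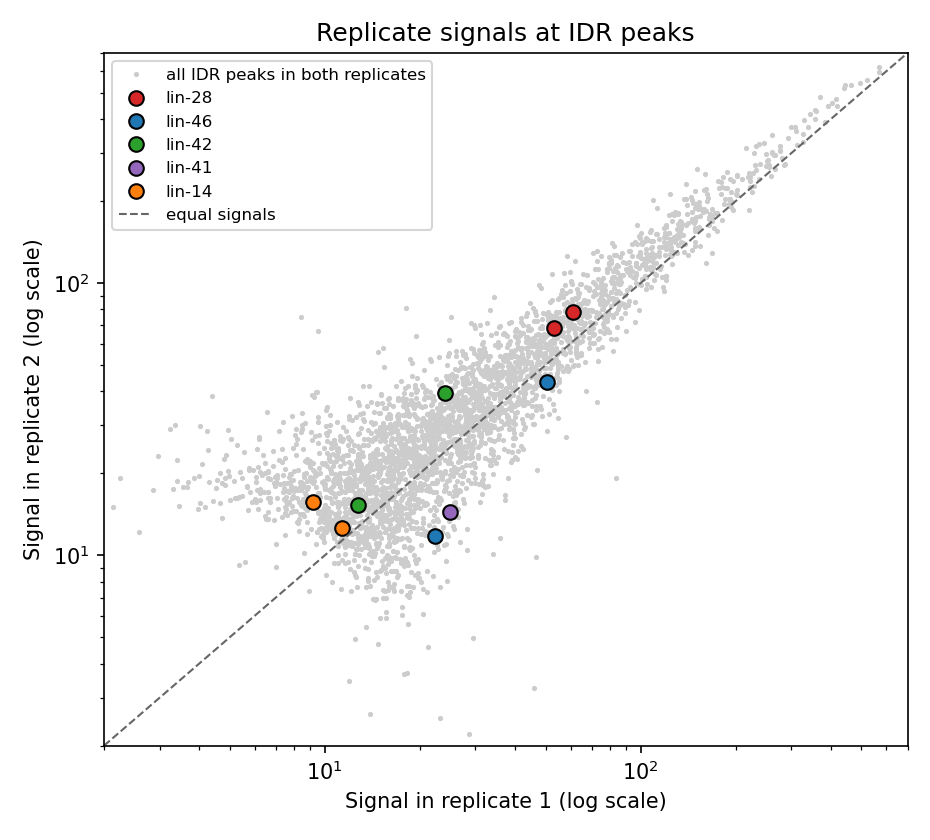
Signal of each IDR peak in replicate 1 (x axis) and replicate 2 (y axis), both on log scales, for the 3322 peaks with an entry in both (grey) and the 9 peaks at heterochronic genes (coloured by gene). The dashed line marks equal signals. The lin-28 points lie within the grey cloud near its upper middle, and the lin-41 point and 1 lin-46 point lie on its lower edge.

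The intronic peaks were set beside intron length, since several of these genes have long introns. Of the 8, lin-14, lin-29, lin-42 and daf-12 have at least 10 kb of intron, as do 454 of all protein-coding genes. Among the 4 with such introns 2 had an intronic IDR summit (50%, interval 6.76 to 93.2), against 18.5% of the 454, a share within the interval. Both of these had 2 such summits, and 6.61% of the 454 had at least 2. At least 2 were found in 2 of the 8 genes, against 0.265% of all protein-coding genes. A count of at least 2 was not among the planned counts and equals what these genes held, so these shares are description only. Per 10 kb of intron there were 1.25 summits in lin-14 and 1.54 in lin-42. Over all 8 genes the density was 0.554 (4 summits in 72.3 kb), against 0.176 in the genes with at least 10 kb of intron and 0.140 in all protein-coding genes. Daf-12, with 23809 bp of intron, and lin-29, with 14774 bp, had no intronic summit in the IDR list. Of the 4 intronic peaks, 1 in lin-14 and 1 in lin-42 lay at the start of a non-coding RNA gene inside the host gene.

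The X-linked genes among the 8 are lin-14, hbl-1 and daf-12, and 1 of the 3 had any IDR summit, against 17.3% of the 2731 protein-coding genes on X. In the longer pooled list, 5 of the 8 genes (lin-14, lin-28, lin-42, hbl-1 and daf-12) had an entry in a promoter window (62.5%, interval 24.5 to 91.5). The share of all protein-coding genes was 36.8%, within that interval. That list also holds background entries, and 4 of these 5 had promoter signals between 4.21 and 19.99, under the lowest signal of the IDR list. Each annotated 5′ end has its own window, and lin-42 has 5 such ends and daf-12 has 9.

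Windows of the same length at all 9 summits were searched on both strands for 4 short motifs. A repeat of GA, written GAGAGA, was found in 2 of the 9 windows, at the promoter peak of lin-28 and at the inner intronic peak of lin-42, where 3 overlapping matches form the run in capitals above. Of all IDR windows 26.9% held it, as did 6.21% of windows centred 300 bp to one side. The alternating GC hexamer GCGCGC was in 0 of the 9 windows, against 10.1% of IDR windows and 0.811% of side windows. The E2F-type heptamer, GCGNGAA, was in 0 of the 9, against 9.94% and 3.39%. The CHR-type hexamer of cell-cycle promoters, TTNGAA, was in 1 of the 9, the lin-14 peak near T25C12.7, against 31.5% of IDR windows and 46.5% of side windows. A match describes the letters only, and a window without one says nothing about a factor.

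Base composition varied widely among the 9 windows. They averaged 52.1% GC with an SD of 10.9 across windows, against 47.0% with an SD of 7.30 for all IDR windows and 34.8% for side windows. The inner intronic window of lin-42, at 70.3% GC, was as high as any of the 3331, a value that 3 windows shared. The first-intron window of lin-42 had 61.4%, with 59 IDR windows higher. At the other end the stronger lin-28 window had 31.7%, with 3261 IDR windows higher. The median of the 9 windows was 51.5%, against 47.5% for all IDR windows. High GC was therefore common among the peaks of these genes but not shared by all of them.

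LIN-15B peaks were also present at other genes of the timing pathway. A list of 34 other protein-coding genes, covering further heterochronic regulators, molting timers and the microRNA machinery, had an IDR summit in the promoter window of 8 genes (23.5%, interval 10.7 to 41.2), against 13.4% of all protein-coding genes, a share within that interval. Introns held one in 5 genes (14.7%, interval 4.95 to 31.1), against 1.84%, and the upstream zone in 9 (26.5%, interval 12.9 to 44.4), against 17.2%. In any zone 19 of the 34 had one (55.9%, interval 37.9 to 72.8), against 28.8%, and 15 had none. The highest signals were 681.7 upstream of xrn-2, an exoribonuclease that degrades RNAs including microRNAs, and 596.4 at the promoter of puf-9, a Pumilio-family RNA-binding protein. Next came 561.8 upstream of drsh-1, the Drosha nuclease that cuts primary microRNAs, and 330.1 upstream of nhl-2, a TRIM-NHL cofactor of the microRNA complex. The promoters of tim-1, a Timeless-like protein, and of pash-1, the partner of Drosha, had 255.1 and 138.0.

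In pooled signal all 6 exceeded the 137.2 of lin-28. For pash-1 the order differed between replicates, with 57.7 against 61.2 for lin-28 in replicate 1 and 79.0 against 78.6 in replicate 2. Of these 6 peaks, 4 lay closer to the 5′ end of another protein-coding gene than to that of the listed gene. The xrn-2 peak was 181 bp upstream of Y48B6A.1, the drsh-1 peak 25 bp upstream of cox-5B, the nhl-2 peak 559 bp upstream of tag-340 and the tim-1 peak 219 bp upstream of Y75B8A.23. Among protein-coding genes the puf-9 and pash-1 peaks were nearest to the listed genes themselves, but the puf-9 summit was 39 bp from the 5′ end of the non-coding RNA gene W06B11.7. Likewise, the nhl-2 summit was 1 bp from the 5′ end of the non-coding RNA gene F26F4.14. The tim-1 summit was 24 bp upstream of sls-2.8, which is not a protein-coding gene.

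The microRNA genes of the pathway were read in the same way from their annotated 5′ ends. These ends are not alike. The annotated let-7 gene spans 14743590 to 14745321 of chromosome X, while the rest are far shorter, such as mir-241 at 14366188 to 14366283 of chromosome V. Distances at let-7 and at the rest are thus not directly comparable, and a window at a short annotation need not cover the promoter. In the promoter window, 2 of 6 had an IDR summit, against 10.7% of all 261 microRNA genes, and from 5000 bp upstream to 200 bp downstream 4 of 6 had one, against 28.0%. The let-7 gene, whose product silences lin-41 and other late targets, had a peak 447 bp upstream with a pooled signal of 44.2, and with 21.0 in replicate 1 and 21.9 in replicate 2. A second peak, 2917 bp upstream with 96.0, was 131 bp upstream of the protein-coding gene C05G5.2. Of the let-7 relatives that act on hbl-1, mir-241 had a peak of 32.0 at 460 bp upstream, with 12.3 in replicate 1 and 16.1 in replicate 2. The same peak was the one counted for mir-48, at 2234 bp, so these neighbours are not independent. The relative mir-84 had a peak of 51.2 at 2328 bp upstream.

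The lin-4 gene, whose product silences lin-14 and lin-28, had no IDR summit. Its highest entry, 499 bp upstream, had a pooled signal of 19.5 (rank 3759), with 7.69 in replicate 1 and 15.03 in replicate 2. Its relative mir-237 had none either, and its highest entry had 5.57.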

How the data were processed

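Peaks of LIN-15B::eGFP in 2 biological replicates of 1 group were taken from the deposited ce11 lists. Per the deposited text records, the authors called peaks and background in each replicate and in the pooled alignments against a control, and then thresholded the pooled peaks by IDR. Names and versions of the aligner and peak caller, like the threshold of the IDR step, were not given in the sources used here. Peak signal is the value the authors deposited, on an unstated scale. The deposited −log10 q-value of each peak stood at its ceiling of 3.96 throughout the IDR list and for 4585 pooled entries, so it could not rank peaks. Of the IDR peaks 64.6% were 310 bp wide, as were 6 of the 9 at the heterochronic genes, and for these the summit is simply the middle of the interval. Depth is unknown, so precision is limited by how many genes were counted. Exact Clopper-Pearson intervals (95%) cover counting error only.

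Summits were placed on WBcel235 with Ensembl annotation release 115. Introns exclude every exon and promoter window of the gene, and a summit could count for several genes. Trans-splicing is common in this worm, and it can put an annotated 5′ end downstream of where transcription begins. A replicate's entry had to overlap a peak by at least 1 bp, and the one with the nearest summit was used. No significance test was made, as there was 1 group and the genes were chosen by name. The members, the pathway list, the motifs and the zones were chosen with earlier results of these data known.

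Named genes are the 8 members, genes that hold or lie nearest a peak of theirs, the pathway genes with the 6 highest signals and the microRNA genes, which were matched through RefSeq coordinates. Backgrounds of genes with at least 10 kb of intron and of genes on X were added after seeing the values. The count of genes with at least 2 intronic summits was not planned either. The alternatives were each replicate's list alone (its 3331 highest entries), a stricter list (1665 peaks) and a lenient list (4585). Others were peak intervals in place of summits, windows of 1000 and 200 bp upstream, and the outermost 5′ end alone. The code was tested on simulated summits. The ce10 lists were not used here. Scripts ran in Python 3.11.15 with scipy 1.17.1 and numpy 2.4.6, and plots came from matplotlib 3.10.9.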

Additional observations from a re-analysis of the deposited data

How the results depend on the processing

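Across 8 alternatives for each of 5 counts, 30 of 40 values stayed within 1.5 times of the reported count and 10 did not. The promoter count, 1 of 8 genes, rested on lin-28 alone. It was 2 in the lenient list, which adds lin-14, and 2 with peak intervals or with a window from 1000 bp upstream, each of which adds lin-46. The shares of all protein-coding genes were then 15.9%, 14.4% and 16.2%. The promoter count was 0 when the outermost 5′ end alone was used (12.7% of all genes), since the lin-28 summit in the window belongs to the inner end. With either replicate's list alone it was 2 without replicate 2 (13.0% of all genes) and 1 without replicate 1 (13.3%). The intronic count of 2 was 1 in the stricter list, and the count in any zone to 3, as the weak peaks of lin-14 and lin-41 are not in that list by construction. The upstream count of 3 was 1 with the window from 1000 bp upstream, which moves summits between zones. Of the 34 pathway genes 8 had a promoter summit. The count was 5 in the stricter list and 3 with a window from 200 bp upstream, where the share of all protein-coding genes also dropped, to 8.53% and 7.59%, against 13.4%. Each replicate's list alone, cut to 3331 entries, gave 3 genes with an intronic summit and 6 with any, because daf-12 then had one. These were not the same site. The highest intronic entry of daf-12 in replicate 1 had 11.3, while its highest pooled entry had only 3.63 there and 16.0 in replicate 2. At these settings the share of all protein-coding genes was taken for promoter windows only. No paired analysis was possible because there was only 1 group.

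The main limits are the 8 genes, the 2 replicates, the unknown depth and signal scale, and peak positions that for most peaks are interval middles. Upstream peaks were assigned by distance, and at lin-46 another gene was closer.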
